A study of Mus musculus with 45 samples.

Results

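The level of each mRNA at the moment AP firing was stopped was compared with its level 1 h later, over 10 of the 45 RNA-seq libraries of the series. The earlier level came from 5 libraries of mouse hippocampal primary neurons after 1 h in bicuculline (Bic, 50 µM), the GABA type A receptor antagonist that induces AP firing. The later level came from 5 libraries of neurons that received the same 1 h of Bic and then 1 h of tetrodotoxin (TTX, 1 µM), which blocks sodium channels and AP firing, with Bic still in the medium. The libraries were assigned to these groups by their labels, and each of the 5 culture preparations (numbered 1, 3, 6, 7 and 8) gave 1 library to each group. Untreated control neurons, neurons after 0.5 or 2 h of Bic, and neurons given 0.5 h of TTX after 0.5 h of Bic, with 5 libraries each from the same preparations, served as references. All cultures came from newborn C57BL/6N mice, received AraC, which holds back dividing cells, and were treated on day in vitro 10 or 11. The cultures are mixed, so in these bulk libraries fewer cells of a type and less RNA per cell cannot be told apart.

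Synaptic activity opens NMDA receptors and L-type calcium channels, and calcium-driven kinases then switch on transcription factors that wait on DNA, among them CREB and SRF with its ternary complex partners. The first genes to respond need no new protein and include transcription factors such as Fos, Egr1 and Npas4, phosphatases that damp the inducing kinases, and Arc, which acts on AMPA receptor trafficking. Genes for secreted and synaptic proteins such as Bdnf, Inhba and Homer1 follow. Once firing stops, the level of an mRNA depends on the synthesis that goes on and on how quickly the mRNA and its precursor are lost or matured, and RNA-seq of total levels does not separate these.

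Both directions were found. Of 15540 genes tested, 2293 were higher and 2234 lower after the hour of TTX than before it, 29.1% of all tested (edgeR's quasi-likelihood test with the preparation as a block, Benjamini-Hochberg adjusted p under 0.05). The higher genes made up 14.8% and the lower genes 14.4% of those tested. Most changes were small, since 147 genes rose and 42 fell by more than 1 on the log2 scale. For 11565 genes (74.4%) the 95% confidence interval of the change lay between −0.5 and 0.5, and such a gene is said here to have held its level, whether or not its small change was called. The 2 groups did not overlap at all for 1037 genes with higher levels (6.67%) and 894 genes with lower levels (5.75%) after TTX. Without the block 1330 genes were higher and 1124 lower, and without preparation 7 there were 1713 and 1422. The balance of directions depended on the scaling, because upper-quartile normalization gave 1929 higher and 2887 lower genes.

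**Figure D1:**
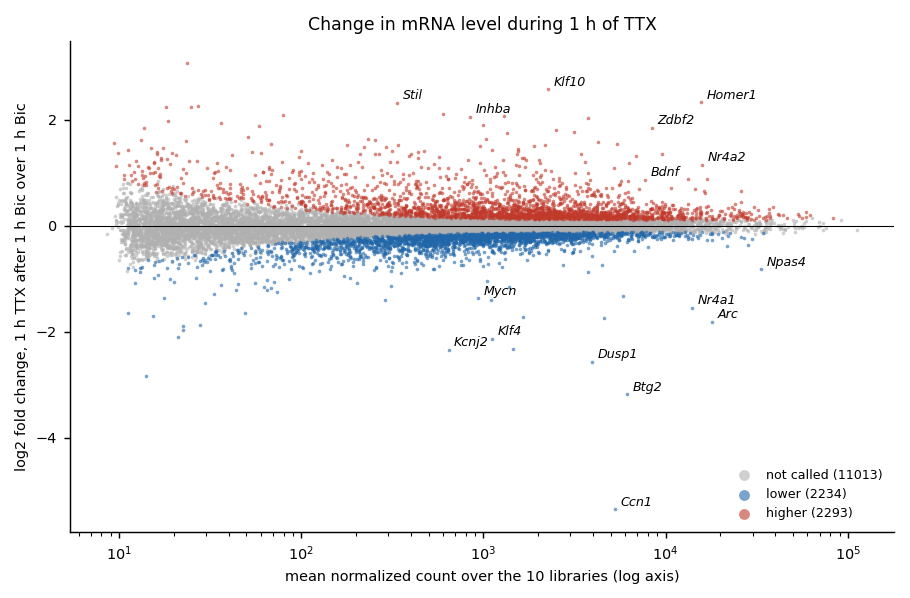
Each point is 1 of the 15540 genes tested, with its mean normalized count over the 10 libraries on a log axis and its log2 fold change between 1 h of TTX after 1 h Bic and 1 h Bic alone. The genes called higher (2293, red) and lower (2234, blue) are about equal in number, and Ccn1 at −5.34 lies farther from 0 than any other gene.

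Each library held 17229802 to 44206367 counted reads at 1 h of Bic and 23895011 to 64680212 after TTX. With the preparation as a block, the p-values weigh a change against how much that change varied from 1 preparation to another. Values below are normalized counts, scaled by TMM to a common library size over all 45 libraries, and are listed for preparations 1, 3, 6, 7 and 8 in that order. Neuronal markers were present in all libraries, and their summed level ranged from 224589 to 253328 at 1 h of Bic and from 228965 to 255014 after TTX. Of 9 neuronal markers, 4 were higher (44.4%, against 14.8% of all genes), Slc17a6 (0.44) most. Tubb3 (−0.24) alone of them was lower (11.1%, against 14.4% of all genes). Of 7 interneuron markers Gad1, Gad2 and Vip (0.29) were higher (42.9%), with a summed level of 49963 to 67870 before and 52835 to 79899 after TTX. None of 8 astrocyte and 6 tested microglia markers was called by edgeR or by DESeq2, and none had an unadjusted p under 0.05. For 4 of these microglia markers the confidence interval was too wide to call the level held. The summed astrocyte level ranged from 30351 to 47246 before and from 32491 to 49632 after TTX, and that of 7 microglia markers from 197 to 302 and from 218 to 304. Of 7 tested oligodendrocyte lineage markers Olig2 fell by 0.81 (14.3% of them, near the 14.4% of all genes), with a summed level of 3762 to 6071 before and 3154 to 5241 after. Of 6 tested vascular and fibroblast markers Dcn (log2 fold change 0.24) and Lum (0.25) rose (33.3%), with a summed level of 1904 to 4613 before and 2099 to 4441 after. No marker gene of these lists was at 0 in all libraries of a group. The part of other cell types in the changes below was not tested.

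The sharpest fall was that of Ccn1 (ENSMUSG00000028195, chromosome 3, 145646976 to 145649981, minus strand of GRCm38), which encodes a secreted matricellular protein and is a target of SRF. Its normalized counts were 12140, 9627, 9896, 10835 and 9013 at 1 h of Bic and 280, 321, 257, 263 and 153 after TTX. No library of the later group came near one of the earlier group, and the later values lay within the range of the untreated controls (185 to 301) in 3 of 5 preparations. The log2 fold change was −5.34 (SE 0.10, adjusted p = 2e-13), a fall of 97.5% ± 0.6 (SD, n = 5 preparations). Against the control the difference after TTX was 0.02 (adjusted p = 0.91), where 13.3% of all genes were higher and 10.8% lower. With firing left on for the same hour, the Ccn1 level at 2 h of Bic was 6552 ± 2077 (SD, n = 5), so that TTX left it 4.66 lower on the log2 scale than uninterrupted Bic (adjusted p = 4.4e-21).

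Btg2 and Tob1 belong to the BTG/TOB family, whose proteins bind the CCR4-NOT deadenylase and promote mRNA decay. Btg2 (ENSMUSG00000020423), with the largest fall after Ccn1 among the named genes, had counts of 11354, 10708, 10421, 10136 and 12565 before TTX and 1252, 1501, 1679, 873 and 968 after it. All later values were below all earlier ones, with a log2 fold change of −3.18 (SE 0.12, adjusted p = 2.1e-10). Tob1 went from 2519 ± 135 to 771 ± 111 (SD, n = 5), a log2 fold change of −1.72 (adjusted p = 8.4e-10). Btg2 remained 0.88 above the control (adjusted p = 0.0021), whereas the difference of Tob1 from the control was −0.23 (adjusted p = 0.12).

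Dusp1, Dusp6 and Trib1, which act on kinase signalling, fell as well. Dusp1 encodes a nuclear phosphatase of MAP kinases, and its counts were 7342, 5514, 6475, 7348 and 7173 before and 1353, 1184, 1551, 926 and 817 after TTX. The groups did not overlap, and the log2 fold change was −2.57 (SE 0.13, adjusted p = 2.4e-09). Dusp6, an ERK phosphatase of the cytoplasm, went from 7005 ± 619 to 2171 ± 671 (log2 fold change −1.73, adjusted p = 8.6e-08). Trib1, a pseudokinase that directs C/EBPα to degradation, went from 2406 ± 278 to 484 ± 96.1 (−2.32, adjusted p = 6.3e-09). In the hour of uninterrupted Bic Trib1 instead rose by 0.69 on the log2 scale (adjusted p = 0.00014).

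Kcnj2, which encodes an inwardly rectifying potassium channel, was below its untreated level after TTX. Its counts were 1086, 1075, 1411, 832 and 970 at 1 h of Bic, 221, 235, 285, 153 and 179 after TTX, and 403, 246, 385, 279 and 303 in the control. Each preparation had less Kcnj2 mRNA after TTX than its own untreated culture, although the groups overlapped. The log2 fold change was −2.33 against 1 h of Bic (SE 0.06, adjusted p = 3.9e-12) and −0.59 against the control (adjusted p = 0.0035).

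Among transcription factors, Klf4, a zinc finger factor, went from 1940, 1710, 2013, 2072 and 1316 to 444, 550, 590, 312 and 236. The groups were separate, with a log2 fold change of −2.13 (SE 0.13, adjusted p = 1.8e-08), but all later values exceeded those of the control (46.1 to 62.2). Nr4a1, an orphan nuclear receptor, had counts of 21417, 16299, 20312, 21616 and 23840 before and 6864, 8100, 10612, 5980 and 4785 after TTX. It too fell in every preparation (−1.55, SE 0.15, adjusted p = 2.8e-06), and its level after TTX was still 2.27 above the control on the log2 scale (adjusted p = 1.6e-06). Arc counts were 30042, 20802, 25069, 25987 and 37486 before and 9623, 8165, 9930, 5317 and 6992 after TTX, again without overlap. Its log2 fold change was −1.81 (SE 0.13, adjusted p = 2e-07).

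Npas4, Egr1 and Fos, all transcription factors of the first response, changed by less than 1 on the log2 scale over the same hour. Npas4, a neuron-specific factor induced by calcium influx, had counts of 45863, 32534, 40060, 45387 and 48467 before and 28631, 25175, 26876, 24122 and 16441 after TTX. The groups did not overlap and the log2 fold change was −0.82 (SE 0.12, adjusted p = 0.00012), a mean fall of 41.2% ± 16.4 (SD, n = 5), and preparation 3 fell least and preparation 8 most. Egr1 counts were 34621, 25559, 32161, 30521 and 35784 before and 28437, 26125, 30723, 19081 and 21140 after TTX. The groups overlapped, Egr1 was lower in 4 of 5 preparations, and its log2 fold change of −0.35 (SE 0.09, adjusted p = 0.011) was not called without the block, by DESeq2, in the fit of all 45 libraries or without preparation 7. Fos counts were 34266, 27368, 33315, 33848 and 33679 before and 31967, 31368, 32629, 26544 and 24337 after TTX. The Fos groups overlapped too, and the change of −0.15 (95% confidence interval −0.31 to 0.01, adjusted p = 0.14) met the definition of a held level. Without preparation 3, the only preparation with more Fos mRNA after TTX than before, the change was −0.24 and was called. All 3 genes rose instead over the hour of uninterrupted Bic, by 0.72 for Npas4, 0.49 for Egr1 and 0.56 for Fos, and relative to 2 h of Bic their levels after TTX were lower by −1.54, −0.85 and −0.71 (adjusted p = 2.1e-15, 7.7e-10 and 4.1e-10).

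Other activity-induced genes went on rising in the absence of firing. Homer1, whose short activity-induced isoform uncouples postsynaptic Homer scaffolds, had counts of 4995, 3973, 5678, 5623 and 5827 at 1 h of Bic and 26387, 23360, 26555, 24491 and 29423 after TTX. All later values were more than 3 times the highest earlier one, with a log2 fold change of 2.33 (SE 0.06, adjusted p = 2.7e-12). These libraries even held more Homer1 mRNA than those of 2 h of Bic (20348 ± 2149, SD, n = 5), by 0.34 on the log2 scale (adjusted p = 2.6e-05). The gene counts do not distinguish Homer1 isoforms.

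Inhba, which encodes the subunit of activin A, went from 309, 326, 351, 370 and 274 to 1327, 1152, 1556, 1434 and 1372. The groups were far apart (log2 fold change 2.06, SE 0.07, adjusted p = 4.1e-11), and the level after TTX was 0.12 below that at 2 h of Bic on the log2 scale (adjusted p = 0.044). Bdnf, the neurotrophin, went from 5391, 4203, 5940, 5755 and 6041 to 9128, 8942, 10776, 9881 and 11125 (0.87, SE 0.05, adjusted p = 1.5e-08). Its level after TTX and at 2 h of Bic differed by 0.05 (95% confidence interval −0.03 to 0.14, adjusted p = 0.35). Atf3, a stress- and activity-induced factor, went from 2438, 1680, 2612, 1985 and 4066 to 5053, 5158, 5560, 3768 and 5111. It rose in 5 of 5 preparations, though the groups overlapped through preparation 8 before and preparation 7 after TTX (log2 fold change 1.00, SE 0.12, adjusted p = 2.2e-05).

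Klf10, a zinc finger factor known as a target of TGF-β signalling, rose more with TTX than with continued firing. Its counts were 653, 689, 685, 506 and 718 at 1 h of Bic, 3882, 3881, 3725, 3753 and 4066 after TTX, and 963, 810, 919, 890 and 978 at 2 h of Bic. The libraries with TTX stood apart from all others, and the controls (726 to 923) lay near the Bic libraries. The log2 fold change was 2.58 against 1 h of Bic (SE 0.06, adjusted p = 2.7e-12) and 2.07 against 2 h of Bic (adjusted p = 9e-17), while 2 h of Bic exceeded 1 h by 0.50 (adjusted p = 1.8e-05).

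The other genes among the 10 largest rises (mean normalized count of at least 100, same direction in all preparations) were Stil, a centriole duplication protein, with 2.32, Sertad1, a regulator of transcription, with 2.11, Zfp516 with 2.06, the ubiquitin ligase Rnf217 with 2.04, Frmd6 with 1.90, Zdbf2 with 1.84 and Btaf1, which takes the TATA-binding protein off DNA, with 1.81. Their log2 rises in uninterrupted Bic over the same hour ranged from 1.55 (Zdbf2) to 2.06 (Frmd6). Relative to 2 h of Bic, Frmd6 was 0.16 lower and Stil, Sertad1, Zfp516, Rnf217, Zdbf2 and Btaf1 were 0.16 to 0.34 higher after TTX on the log2 scale.

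**Figure D2:**
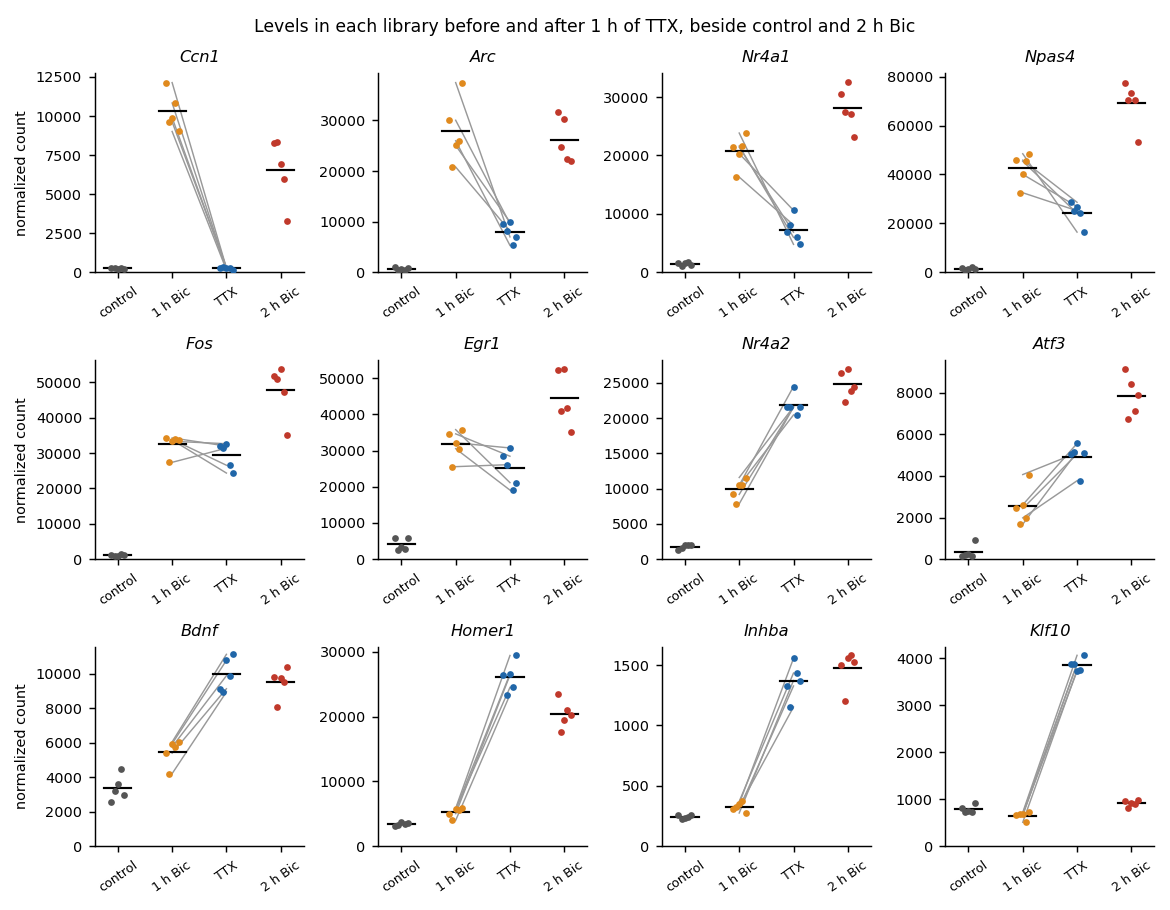
Normalized counts of 12 genes in each library (y axis from 0) for control, 1 h Bic, 1 h Bic then 1 h TTX, and 2 h Bic, with 5 points per group, black lines at the group means and grey lines joining the preparations across the TTX step. All preparations fall for Ccn1, Arc, Nr4a1 and Npas4 and all rise for Nr4a2, Atf3, Bdnf, Homer1, Inhba and Klf10, and Klf10 alone of the 12 is far higher with TTX than at 2 h Bic.

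To follow genes by the time of their induction with groups that share no library with the TTX step, genes upregulated after 0.5 h of Bic against control were called first-wave genes (80 genes, 0.541% of those tested in that comparison). During the hour of TTX, 42 of the 80 fell and 19 rose, 52.5% and 23.8% against 14.4% and 14.8% of all genes. Another 18 held their level without being called, where 8627 of all 15540 genes tested did. Maff (0.30, 95% confidence interval 0.02 to 0.57) was the 1 gene neither called nor held. The median log2 fold change of the 80 was −0.30, beside −0.02 over all genes tested, and 20 fell by more than 1. In uninterrupted Bic the same 80 genes had a median log2 fold change of 0.51, with 52 higher and 11 lower at 2 than at 1 h (11.0% and 12.5% of all genes). Against 2 h of Bic, 73 of the 79 tested were lower after TTX (of all genes 16.2% were lower and 15.7% higher). Without the block, 12 of the 80 rose.

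**Figure D3:**
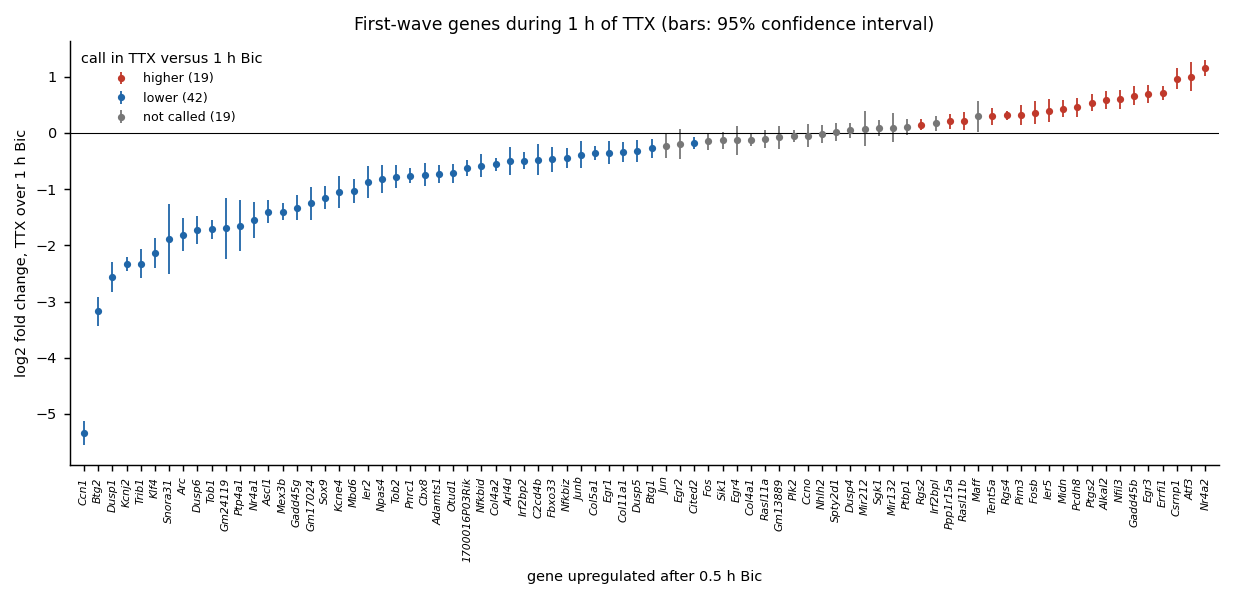
Each of the 80 first-wave genes on the x axis, in order of its log2 fold change between 1 h of TTX after 1 h Bic and 1 h Bic (y axis), with its 95% confidence interval. The genes form a continuous range from Ccn1 (−5.34) to Nr4a2 (1.15), with 42 lower, 19 higher and 19 not called.

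The fall was not a property of whole families. Of the NR4A nuclear receptors, Nr4a1 fell while Nr4a2 went from 9183, 7842, 10477, 10460 and 11575 to 21558, 21555, 24472, 20445 and 21580, without overlap (1.15, SE 0.07, adjusted p = 1.6e-08). Nr4a3 rose by 0.65. Of the EGR factors, Egr3 rose by 0.69, Egr1 fell by 0.35, and Egr2 (−0.20) and Egr4 (−0.13) held. Among AP-1 genes Junb fell by 0.39 and Fosb rose by 0.36, and the change of Jun (−0.23) was not called. Dusp1, Dusp5 (−0.32) and Dusp6 fell, Dusp4 (0.05) held and Dusp14 (0.96), another dual-specificity phosphatase, rose. Of the 3 first-wave genes with the largest rises, Nr4a2 was followed by Atf3 and by Csrnp1 (0.97, adjusted p = 1.7e-06), a nuclear protein induced by axin.

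The part of an induction that outlasted firing was expressed as the rise over control after TTX in percent of the rise at 1 h of Bic, for each preparation. This share was computed for the 130 genes that were upregulated after 1 h of Bic against control (2.92% of all genes tested were) and had risen at least 1.5-fold in every preparation. It is a description, because these genes were chosen with the 1 h Bic libraries. The share averaged under 25% for 14 genes, 25% to 75% for 27, within 25 percentage points of 100% for 31 and above that for 58, with a median of 112%. It was 0.0529% ± 0.445 for Ccn1, 5.80% ± 4.17 for Btg2, 10.1% ± 5.66 for Dusp1, 28.2% ± 10.1 for Arc, 31.5% ± 14.8 for Nr4a1, 57.3% ± 16.9 for Npas4 and 91.0% ± 17.3 for Fos (SD, n = 5 preparations). Nr4a2, at 252% ± 44 (lowest 205%), had gained more after TTX than in the hour before in every preparation. Atf3, at 220% ± 71.9, had done so on average, with shares from 133% to 332%. The preparations differed, with median shares of 116%, 143%, 120.5%, 91.9% and 89.3% in preparations 1, 3, 6, 7 and 8. Of the 41 genes with a mean share under 75%, 15 had their lowest share in preparation 7 and 16 in preparation 8.

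**Figure D4:**
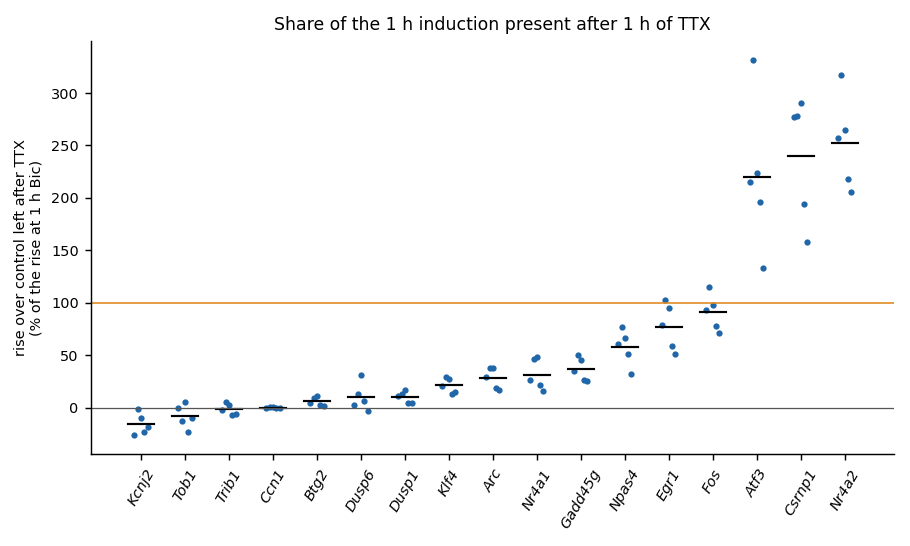
Rise over control left after 1 h of TTX in percent of the rise at 1 h of Bic, for 17 named genes, with 1 point for each of the 5 preparations and black lines at the means. The orange line at 100% marks an unchanged level. Kcnj2 (mean −15.8%), Tob1 (−8.23%), Trib1 (−1.52%) and Ccn1 (0.0529%) are on average at or below the control level, and Atf3, Csrnp1 and Nr4a2 are above 100% in all preparations.

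The cyclic AMP response element (CRE, letters TGACGTCA, a palindrome and so the same on both strands), the DNA element that CREB binds, was searched in the 250 bases before the start of each gene in RefSeq (GRCm38.p6). It was present before 5 of the 31 first-wave genes with a promoter entry that fell, 2 of the 18 that rose and 3 of the 14 that were not called. The share was 3.02% among the 10818 tested protein-coding genes with an entry and 1.55% of all 32851 windows. The element that SRF binds (CArG box, CCWWWWWWGG with W for A or T) was found before 1 of the 31, 0 of the 18 and 1 of the 14. Its share was 1.43% of the 10818 genes. To show that the CRE precedes genes of each course, 100 bases around it are given 5′ to 3′ on the strand of the gene, with the CRE in capitals, for Btg2 and Dusp1 (fell), Errfi1 (rose) and Plk2 (not called).
Btg2, chr1:134079268-134079367, minus strand: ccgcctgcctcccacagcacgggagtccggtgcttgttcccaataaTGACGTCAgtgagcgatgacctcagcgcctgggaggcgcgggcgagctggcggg
Dusp1, chr17:26508562-26508661, minus strand: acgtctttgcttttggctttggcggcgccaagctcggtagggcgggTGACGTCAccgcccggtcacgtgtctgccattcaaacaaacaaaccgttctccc
Errfi1, chr4:150854970-150855069, plus strand: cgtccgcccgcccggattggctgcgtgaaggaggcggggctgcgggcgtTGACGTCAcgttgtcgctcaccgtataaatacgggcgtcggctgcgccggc
Plk2, chr13:110394936-110395035, plus strand: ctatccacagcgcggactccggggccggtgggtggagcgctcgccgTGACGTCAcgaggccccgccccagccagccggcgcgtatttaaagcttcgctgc
The CRE begins 166, 143, 51 and 62 bases before the start of these genes. Errfi1, an inhibitor of the EGF receptor, rose by 0.71 (adjusted p = 6e-07). Plk2, a polo-like kinase that acts at synapses, changed by −0.05 (adjusted p = 0.48), with counts of 12974, 11740, 13403, 13627 and 13804 before and 12596, 12345, 13853, 11057 and 13452 after TTX. Those ranges of Plk2 overlapped almost fully. Over the hour of uninterrupted Bic Plk2 rose by 0.65, and its level after TTX differed from that at 2 h of Bic by −0.71.

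The precursors of miR-132 and miR-212, neighbouring microRNAs known to be induced through CREB, also held. Their mature 3p strands share the seed (bases 2 to 8, in capitals), here from RefSeq on the plus strand of GRCm38.p6, and are shown because both precursors followed the same course.
mmu-miR-132-3p, chr11:75173723-75173744: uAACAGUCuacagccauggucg
mmu-miR-212-3p, chr11:75173443-75173464: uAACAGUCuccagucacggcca
Mir132 counts were 130, 105, 90.5, 116 and 139 at 1 h of Bic and 169, 102, 117, 88.7 and 164 after TTX (0.10, adjusted p = 0.58). Mir212 counts were 151, 89.7, 109, 138 and 167 before and 170, 136, 136, 87.7 and 166 after TTX (0.08, adjusted p = 0.73). Both groups overlapped, and both genes had risen well above control (3.28 to 21.8) by 1 h of Bic. Over the hour of uninterrupted Bic Mir132 rose by 1.06 and Mir212 by 1.08. Their levels after TTX differed from those at 2 h of Bic by −0.93 and −1.01. Reads over these genes in poly-A libraries stem from precursor transcripts and say nothing of the mature microRNAs.

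Gene structure was compared as a description. The median genomic span was 5.61 kb for the first-wave genes that fell, 6.91 kb for those that rose and 5.80 kb for those not called, against 26.5 kb for all tested protein-coding genes. Over all genes called with a change above 0.5 on the log2 scale, the median span was 31.3 kb for 462 higher genes and 20.5 kb for 279 lower genes, with middle ranges from 11.6 to 71.6 kb and from 9.46 to 44.5 kb. The AU-rich nonamer TTATTTATT (DNA letters), a mark of unstable mRNAs, was present in the longest annotated 3′ UTR of 16.3% of the higher, 6.47% of the lower and 8.60% of all tested genes. Among first-wave genes it was present in 4 of 38 that fell (10.5%), 3 of 19 that rose (15.8%) and 4 of 17 not called (23.5%). These numbers are too small to rank the first-wave groups. Per kb of 3′ UTR there were 0.101 nonamers in the higher, 0.059 in the lower and 0.0691 in all tested genes. The median length of that 3′ UTR was 1784 bases for the higher genes, 907 for the lower and 1252 for all.

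Genes that were upregulated at 2 h of Bic and not at 0.5 h (14.4% of all genes were higher at 2 h, and 2119 were such later-wave genes, of which 2114 were tested) rose more often than they fell. After TTX, 895 of them were higher and 142 lower than at 1 h of Bic, 42.3% and 6.72%, against 14.8% and 14.4% of all genes. A further 944 held without a call, where 8627 of all 15540 genes tested did. The median log2 fold change of later-wave genes was 0.13, beside −0.02 over all genes. Genes suppressed at 2 h of Bic (2284, 15% of all genes, of which 2280 were tested) moved the other way, with 710 lower (31.1%) and 225 higher (9.87%) and a median of −0.07, and 1217 held without a call. None of these lists used a library of the comparison.

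Among suppressed genes, those with the largest falls were Mycn (−1.37, adjusted p = 7.6e-09), which encodes a proto-oncogenic transcription factor, Hs1bp3 (−1.07, adjusted p = 3.4e-07) and Wtip (−0.99, adjusted p = 6.4e-07). Mycn counts were 1317, 1485, 1463, 1459 and 1002 at 1 h of Bic, 447, 716, 535, 489 and 423 after TTX and 777, 973, 843, 804 and 491 at 2 h of Bic. The TTX libraries were below all those of 1 h of Bic, and the difference from 2 h of Bic was −0.58 (adjusted p = 3.8e-06). The largest rises were those of Ccnj (1.2, adjusted p = 1.5e-07), Dyrk3 (1.00, adjusted p = 2.9e-07), a kinase that dissolves stress granules, and Zcchc3 (0.98, adjusted p = 1.3e-07). Ccnj, a cyclin, had counts of 206, 201, 211, 198 and 202 before and 440, 485, 371, 533 and 520 after TTX, against 240 to 295 in the control and 134 to 196 at 2 h of Bic. Its TTX libraries thus exceeded the untreated ones as well as those under Bic.

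Genes were also grouped into 14 lists by function, and the shares that rose and fell are to be read beside 14.8% and 14.4% of all genes tested. Of 36 rapid nuclear regulators, 15 rose and 12 fell (41.7% and 33.3%), with a median log2 fold change of 0.09. Klf4 and Nr4a1 fell most and Klf10 and Nr4a2 rose most. Klf2 (−1.22), Cebpd (−1.0) and Ier2 (−0.87) were among the others that fell, and Fosl1 (1.11), Crem (0.93), which includes the CREB antagonist ICER, and Fosl2 (0.88) among those that rose. Of 27 signalling feedback regulators, 10 rose and 8 fell (37% and 29.6%, median 0.05), led by Dusp1 and Trib1 downward and by the kinase Pim1 (1.62, adjusted p = 1.3e-07) and Dusp14 (0.96, adjusted p = 3.4e-07) upward. Pim1 remained 1.26 below its level at 2 h of Bic (adjusted p = 2.9e-10).

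Of 25 synaptic and secreted effectors 17 rose (68.0%, against 14.8% of all genes) and 3 fell (12%, near the 14.4% of all genes), with a median of 0.50. Besides Homer1 and Inhba, the neuronal pentraxin Nptx2 (1.02), Gpr3, a receptor that raises cyclic AMP (1.28), Nrn1 (0.76) and the secretogranin Scg2 (0.65) rose. The Serpinb2 change of 2.26 (adjusted p = 0.00026) rested on low counts, 10.4 on average before and 44.2 after TTX. Arc, Gadd45g, a stress sensor linked to DNA demethylation (−1.33, adjusted p = 2.6e-07), and Lingo3 (−0.48) fell. In the list of 36 mRNA decay factors 13 fell (36.1%, against 14.4% of all genes) and 8 rose (22.2%, against 14.8%), with a median of −0.07 and with Btg2, Tob1, Zfp36l2 (−1.14), Tob2 (−0.78) and Zfp36l1 (−0.62) lower, whereas Zc3h12c, of the Regnase family of nucleases (0.56), and the decapping factor Dcp1a (0.30) were higher.

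For the 17 tested glutamate receptor genes the shares that rose (17.6%) and fell (5.88%) were near or below those of all genes (14.8% and 14.4%), with a median of 0.09. The calls were the AMPA subunits Gria1 (0.11), Gria3 (0.15) and Gria4 (0.21), which were higher, and Grm2 (−0.26), which was lower. Of 18 genes of GABA-A receptors and GABA handling, 10 rose (55.6%, against 14.8% of all genes, median 0.18), led by the chloride importer Slc12a2 (0.47, adjusted p = 9.9e-06) and Gabrg1 (0.44, adjusted p = 0.0005), and the genes of GABA synthesis Gad1 (0.23) and Gad2 (0.30) were among them. Gad1, Gad2 and Slc32a1 are interneuron markers too, so the summed level of those markers (median 59245 before and 64834 after TTX) is not separate from this list. Of the interneuron markers outside it, Vip (0.29) was higher, and Sst (0.01), Npy (0.18) and Pvalb (0.15) were not called. The part of interneurons in the rise was not tested. Of 32 sodium and potassium channel genes 8 rose (25%, against 14.8% of all genes) and 5 fell (15.6%, near the 14.4% of all genes), with a median of 0.01 and with Kcna4 (0.74) and Kcna1 (0.65) highest and Kcnj2 and Kcng1 (−0.30) lowest. Among these channels Kcna4 differed from its level at 2 h of Bic by 0.68 (adjusted p = 7.8e-09) and Kcna1 by 0.13 (adjusted p = 0.034).

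In the endoplasmic reticulum chaperone list, 11 of 20 tested genes rose (55.0%, against 14.8% of all genes) and 2 fell (10%, against 14.4%), with a median of 0.14 and with Sdf2l1 (0.52) and Dnajb9 (0.45) first among the rises and Creld2 (−0.23) and Syvn1 (−0.15) the falls. Of 17 tested cytosolic heat shock genes 9 rose (52.9%, median 0.18). Hspa1b (0.45, adjusted p = 0.019) rose in 3 of the 5 preparations, and its change was not called without preparation 1 (0.30) or 6 (0.42). Bag3 rose by 0.40 in all 5. Cholesterol synthesis genes split, with 8 of 23 higher, led by Cyp51 (0.41) and Idi1 (0.30), and 6 lower, among them Mvd (−0.30). Among 18 actin and SRF cytoskeletal targets Ccn1 was the only one to fall, and Vcl (0.61), Tpm4 (0.47), Cnn3 (0.25) and Tpm3 (0.13) rose, with a median of 0.10, while the related Ccn2 changed by 0.06 without a call.

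Of 18 clock genes 7 rose (38.9%, against 14.8% of all genes) and 1 fell (5.56%, against 14.4%), Dbp with −0.27, and the median was 0.07. Per2, a repressor of the clock, went from 911, 605, 596, 781 and 930 to 1993, 1654, 1503, 1667 and 2177 with no overlap (1.25, adjusted p = 1.7e-09), and it was 0.50 above its level at 2 h of Bic (adjusted p = 6.7e-06). Rorb rose by 1.23 and Per1 by 0.69. The 7 mitochondrially encoded mRNAs with counts had a median of 0.22 and 6 of them rose (85.7%, against 14.8% of all genes), led by mt-Nd2 (0.26) and mt-Nd4 (0.25), and 6 others were listed at 0 in all libraries. Against control the changes of the 7 after TTX ranged only from −0.09 (mt-Nd1) to 0.06 (mt-Nd4). With 0.5 h of TTX after 0.5 h of Bic they ranged from −0.21 (mt-Nd4) to 0.02 (mt-Nd6). Of 5 tested microRNA host transcripts, Mir124a-1hg (0.62), Mir22hg (0.50) and Mir9-3hg (0.19) rose. Mir124a-1hg was higher in 4 of 5 preparations, with an adjusted p of 0.0026.

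**Figure D5:**
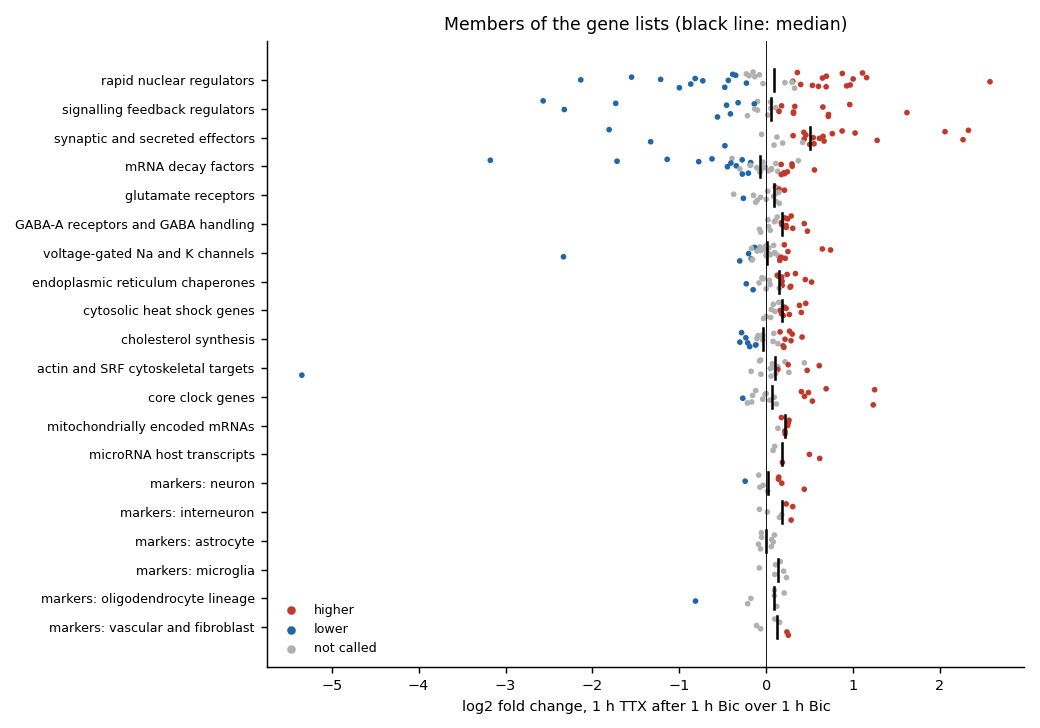
Log2 fold change between 1 h of TTX after 1 h Bic and 1 h Bic (x axis) for the tested members of 14 functional and 6 marker lists (y axis), coloured by the call, with the list median in black. The synaptic and secreted effectors have the highest median (0.50), and the 8 astrocyte markers lie within −0.09 to 0.09 of 0.

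The shorter block, 0.5 h of TTX after 0.5 h of Bic, changed far fewer genes. Of 15091 tested, 93 were higher (0.616%) and 8 lower (0.053%) than at 0.5 h of Bic, 0.669% in all. The changes in the longer and the shorter block differed for 1942 of 15729 genes (12.3%) by a test of the interaction, 1212 with a higher (7.71%) and 730 with a lower change (4.64%) in the longer block. This balance turned with upper-quartile scaling (922 higher, 1045 lower), and there were 525 and 260 without the block, 770 and 542 without preparation 1, 936 and 478 without preparation 3 and 609 and 427 without preparation 8. The 2 blocks share no library, but they differ both in the firing before TTX and in the time in TTX, and these cannot be told apart. The largest differences among genes with a mean count of at least 100 were those of Ccn1, which changed by −5.34 in the longer and −0.33 in the shorter block (interaction −4.99, adjusted p = 3.6e-13), Btg2 (interaction −3.41, adjusted p = 4.3e-11) and Klf4 (−2.81, adjusted p = 1.7e-06) downward, and Klf10 (2.35, adjusted p = 3e-11), Zfp516 (2.12, adjusted p = 2.4e-12) and Rnf217 (2.03, adjusted p = 2.6e-12) upward. Nr4a1 rose in the shorter block (0.91, adjusted p = 0.0012) and fell in the longer one (interaction −2.42, adjusted p = 2.2e-07). For Nr4a2 the rises of 1.13 and 1.15 gave an interaction of 0.05 (adjusted p = 0.87).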

How the data were processed

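RNA was sequenced by the authors from strand-specific poly-A libraries (single-end, 75 cycles). Per the labels and the methods, reads were aligned with STAR 2.5.4b to GRCm38 with Ensembl release 94 and counted by strand (setting 2 of featureCounts 1.6.5), without multi-mapping or multi-overlapping reads. The authors deposited raw counts for 54532 genes in 45 libraries, without normalization. Symbols and positions came from GENCODE M21 (54495 genes matched).

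Each pair of conditions was tested on its own libraries with edgeR 4.0.16 (filterByExpr, TMM, quasi-likelihood test, culture preparation as a block), and adjusted p-values under 0.05 were called. Same-numbered libraries come from 1 preparation per the labels, and their deviations from the group means correlated at 0.158 to 0.388 (other pairs −0.0828 on average, 16492 genes). No 2 libraries had identical counts. The study used DESeq2 on all genes with a read and does not state a block. Its fit was not repeated here. DESeq2 1.42.0 with the block on the same genes, other normalizations, all genes with a read, a fit of all 45 libraries, no block and each preparation left out served as alternatives. The scripts were tested on simulated data.

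Named genes were 9 that the study measured by RT-qPCR, the 10 largest rises and falls, the leading called members of each list, first-wave and suppressed genes and the largest interactions. They left out gene models and clones (100 of 3741 candidates). Others named from the lists or families were chosen after their values were seen. Members, lists and rules were chosen with earlier results of these data known. One result is not reported here.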

Additional observations from a re-analysis of the deposited data

Results flagged for a closer look

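For 46 of 66 named genes, the change with TTX differed between the longer (1 h of Bic, 1 h of TTX) and the shorter block (0.5 h of each) by the interaction test. Of all genes 1942 of 15729 (12.3%) did. Many of the 66 were chosen for large changes with TTX or large interactions, so a high count follows from the choice. The values here are the log2 change in the longer block minus that in the shorter one. Negative differences were found for Ccn1 (−4.99), Btg2 (−3.41), Klf4 (−2.81), Trib1 (−2.59), Dusp1 (−2.55), Kcnj2 (−2.43), Nr4a1 (−2.42), Tob1 (−2.0), Arc (−1.94), Dusp6 (−1.93), Mycn (−1.41), Gadd45g (−1.41), Hs1bp3 (−0.98), Egr1 (−0.84), Npas4 (−0.71) and Wtip (−0.70). Large positive differences were those of Klf10 (2.35), Zfp516 (2.12), Rnf217 (2.03), Homer1 (1.95), Btaf1 (1.85), Pim1 (1.62), Inhba (1.59), Ccnj (1.52), Zdbf2 (1.49), Frmd6 (1.47), Sertad1 (1.33), Stil (1.25), Dyrk3 (1.06) and Per2 (1.03). Smaller ones were those of Rorb (0.89), Zcchc3 (0.89), Dusp14 (0.68), Dcp1a (0.62), Vcl (0.62), Kcna1 (0.57), Mir22hg (0.56), Slc12a2 (0.53), Sdf2l1 (0.51), Kcna4 (0.49), Tpm4 (0.47), mt-Nd4 (0.46), Cyp51 (0.45), mt-Nd2 (0.43), Dnajb9 (0.37) and Gria4 (0.28).

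In 13 of 198 groups of 5 values, 1 preparation lay far from the other 4 by Dixon's test, which chance alone gives in about 1 of 20 groups. After TTX these were the normalized counts of Hs1bp3 in preparation 7 (164, others 117 to 129), Dnajb9 in 8 (2142, others 1774 to 1876), Hspa1b in 1 (458, others 190 to 262), Mir124a-1hg in 6 (1325, others 3202 to 3785), Atf3 in 7 (3768, others 5053 to 5560), Nr4a2 in 6 (24472, others 20445 to 21580) and Frmd6 in 1 (1885, others 1456 to 1507). At 1 h of Bic they were those of Fos in preparation 3 (27368, others 33315 to 34266) and Serpinb2 in 8 (36.7, others 1.99 to 5.58). The percent change stood apart for Hs1bp3 in preparation 3 (−60.4%, others −51.2% to −48.1%), Grm2 in 3 (−9.12%, others −19.4% to −16.6%), Mir22hg in 8 (63.6%, others 34.6% to 40.1%) and Klf10 in 7 (642%, others 444% to 495%).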

How the results depend on the processing

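Without the block, the numbers of higher and lower genes were 1330 and 1124 for the TTX step (all 2454 of them also called with the block), 792 and 976 for 2 against 1 h of Bic, 1006 and 706 for TTX against 2 h of Bic, 1285 and 901 against control, 48 and 4 for the shorter block and 525 and 260 for the interaction. There were then 1213 later-wave genes, 12 first-wave genes that rose and 96 called members of the functional lists in place of 169. Over all genes with a read, where the quasi-likelihood dispersions were taken from the trend alone (infinite prior degrees of freedom), the shorter block gave 202 higher and 39 lower genes and the first wave held 147. The fit of all 45 libraries gave 1516 lower genes against 2 h of Bic, 24 lower in the shorter block and 126 first-wave genes. Upper-quartile normalization gave 3018 lower genes against control (1584 higher, where the main numbers were 1665 and 2048) and turned the interaction to 922 higher and 1045 lower.

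Leaving out 1 preparation at a time gave 1713 to 2210 higher and 1422 to 2074 lower genes for the TTX step, with the fewest without preparation 7. The ranges were 1324 to 1525 and 1530 to 1777 for 2 against 1 h of Bic, 1695 to 2954 and 1388 to 2662 against 2 h of Bic (1590 lower without preparation 6), 1487 to 2367 and 875 to 2019 against control, 54 to 136 and 4 to 11 for the shorter block, and 609 to 1009 and 427 to 542 for the interaction. They were 55 to 103 first-wave, 1381 to 2469 later-wave and 1612 to 2640 suppressed genes, 36 to 46 first-wave genes that fell, 16 to 20 that rose and 142 to 167 called list members. The median share of the 1 h rise left after TTX was 102% to 121%. Without preparation 6, the interactions of Bag3 and Nr4a2 and the difference of Tpm4 from 2 h of Bic (−0.0025) changed sign, none of which was called. The interaction ranged from −0.31 to 0.10 for Bag3 and from −0.077 to 0.15 for Nr4a2 with 1 preparation left out.

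Among 66 named genes the TTX step kept its direction under every alternative run. Without the block 13 calls were lost, among them Egr1, Grm2, Gria3, mt-Nd4, Idi1, Bag3, Hspa1b and Syvn1, and Creld2 was lost under 7 of the 11 alternatives. Genes with fewer than 100 normalized counts, such as Serpinb2, had the widest errors. The libraries show levels at 1 time after TTX, so that the course within the hour is not resolved.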

Other observations

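Small nucleolar RNA genes were among the first-wave genes that fell, although a poly-A library does not select for them. Snora31 had a mean normalized count of 36.6 at 1 h of Bic and 8.57 after TTX (log2 fold change −1.89, adjusted p = 0.00022), close to its control mean of 8.31. Gm24119, another small nucleolar RNA gene, went from 23.2 to 7.51 (−1.70, adjusted p = 0.00018). Collagen genes were also in the first wave, and Col4a2 (−0.56), Col5a1 (−0.35) and Col11a1 (−0.35) fell with TTX, whereas the change of Col4a1 (−0.12) was not called.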
